A study of Mus musculus with 54 samples.

Results

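Chromatin sites that carried a peak of both Fli1 and Ikzf1 were examined in cultured wild-type mouse B-cell progenitors. The sites were chosen by measured values: a site is an Ikzf1 peak that shares at least 1 bp with a Fli1 peak, and 4123 of the 5741 Ikzf1 peaks (71.8%, 95% Wilson interval 70.6 to 73.0) met this. The other 1618 Ikzf1 peaks, and the 23151 of 27261 Fli1 peaks that met no Ikzf1 peak, served as comparison sets. Peak overlap and the peak scores therefore describe how the sites were selected and are given without any test.

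The series holds 54 samples in 40 groups. Fetal liver cells labelled ProB, of C57BL6/J background, came from Wt, Ebf1-KO (no Ebf1, a factor of B-cell specification) and E2A-KO (no E2A, an E-protein encoded by Tcf3) fetuses and were expanded on OP9 stroma with interleukin-7, FLT3 ligand and KIT ligand. The Fli1 and the Ikzf1 list each rest on 1 Wt ChIP-seq library, fixed with DSG and formaldehyde, with peaks called against input, and share 1 input library by its title; the Ebf1-KO libraries of both factors are not analysed here. Ebf1-KO cells carrying a pMiG-Ebf1ER vector, which encodes an Ebf1 protein switched on by 4OHT, were taken at 0, 6, 24 and 72 h of 4OHT. The 230-238 line, an Abelson-transformed progenitor B cell line, gave a list of accessible regions from 2 ATAC-seq samples and H3K4me3 PLAC-seq contacts from 2 samples, and the deposited Ebf1-bound regions rest on Ebf1 peaks of that line. The labels give no fetal age, and nothing in them says that samples came from separate animals. Expression was not measured here, so the ProB label could not be checked on RNA. Of 7 B-progenitor marker genes 4 had a shared site, and Cd79a, Vpreb1 and Ebf1 had none. The counts were 2 of 11 for T-cell, 1 of 4 for natural killer, 2 of 9 for myeloid, 0 of 5 for erythroid and 0 of 7 for stromal markers, beside 18.4% of all named genes, and lists this short do not settle the label.

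Fli1 belongs to the ETS family of transcription factors, which bind DNA around a GGAA core and are needed in blood stem cells, megakaryocytes and early B cells. Ikzf1 encodes Ikaros, a zinc finger protein needed for lymphoid development that binds around a GGGAA core and associates with the NuRD remodelling and deacetylase complex. Both recognition cores contain the letters GGAA, so the motif of one factor can lie inside the motif of the other.

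The stretches printed below are the parts of shared Ikzf1 peaks that lie in RefSeq promoter windows (GRCm38.p6, 250 bases before each start, bases after the start left out), read 5′ to 3′ along the gene. Capitals mark each GGAA or its complement TTCC. The first 4 come from the sites with the highest scores or with Ebf1 nearby, and show what letters such sites hold. Rps19 (chr7:24884342-24884466, + strand) encodes a small-subunit ribosomal protein, Cltc (chr11:86757570-86757754, - strand) the clathrin heavy chain, Spred1 (chr2:117120821-117120964, + strand) an inhibitor of Ras signalling and Tac4 (chr11:95261323-95261507, + strand) a tachykinin peptide made by B-lineage cells.
Rps19: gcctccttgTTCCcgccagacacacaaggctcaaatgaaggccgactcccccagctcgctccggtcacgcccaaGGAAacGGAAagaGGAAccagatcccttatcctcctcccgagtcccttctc
Cltc: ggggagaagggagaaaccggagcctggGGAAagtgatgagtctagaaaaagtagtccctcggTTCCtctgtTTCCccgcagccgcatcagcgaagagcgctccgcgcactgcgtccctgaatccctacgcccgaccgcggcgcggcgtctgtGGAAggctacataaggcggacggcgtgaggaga
Spred1: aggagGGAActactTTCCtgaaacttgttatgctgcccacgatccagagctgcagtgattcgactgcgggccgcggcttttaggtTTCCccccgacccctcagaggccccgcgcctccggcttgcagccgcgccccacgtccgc
Tac4: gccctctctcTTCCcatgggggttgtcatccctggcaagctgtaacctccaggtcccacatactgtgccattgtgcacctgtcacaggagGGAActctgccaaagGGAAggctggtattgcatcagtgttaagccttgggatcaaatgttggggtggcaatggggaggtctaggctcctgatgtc

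Rps19, Cltc and Spred1 held 4, 4 and 3 cores and no match to the ETS letters GGAAGT or the Ikaros letters TGGGAA on either strand. Tac4 held 3 cores, 1 Ikaros match and 1 match to the Ebf1 letters TCCCNNGGG. A further 4 stretches were chosen after their values were seen, to show forms that are rare among the top sites. Zfp260 (chr7:30094832-30095016, + strand), a zinc finger gene, had the third-highest Ikzf1 score and 2 Ikaros matches. Tec (chr5:72868552-72868698, - strand), a tyrosine kinase of blood cells, and Fcho2 (chr13:98815462-98815646, - strand), an endocytosis protein, hold the joined letters TGGGAAGT in which both motifs overlap. Pcbp1 (chr6:86526221-86526405, - strand), an RNA-binding protein, holds the long ETS letters CCGGAAGT.
Zfp260: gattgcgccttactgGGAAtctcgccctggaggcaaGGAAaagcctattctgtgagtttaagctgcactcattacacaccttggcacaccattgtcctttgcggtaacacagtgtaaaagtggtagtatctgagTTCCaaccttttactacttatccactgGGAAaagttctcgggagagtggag
Tec: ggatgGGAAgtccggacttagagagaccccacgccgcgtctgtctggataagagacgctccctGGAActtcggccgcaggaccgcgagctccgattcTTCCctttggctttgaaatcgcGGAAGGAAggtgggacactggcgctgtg
Fcho2: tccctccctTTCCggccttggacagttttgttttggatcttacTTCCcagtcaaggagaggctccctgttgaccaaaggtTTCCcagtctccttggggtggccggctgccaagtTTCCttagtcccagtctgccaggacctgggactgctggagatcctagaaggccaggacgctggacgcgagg
Pcbp1: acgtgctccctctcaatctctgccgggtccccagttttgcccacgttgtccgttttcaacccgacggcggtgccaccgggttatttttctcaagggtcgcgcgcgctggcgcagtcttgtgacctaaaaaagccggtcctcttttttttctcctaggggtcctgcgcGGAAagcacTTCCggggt

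Of the 487 shared peak parts that lay upstream of a start in these windows, 396 (81.3%) held a GGAA core, over a median length of 142 bases. Fewer held a full motif: 85 (17.5%) had GGAAGT, 74 (15.2%) had TGGGAA and 142 (29.2%) had either, while 17 (3.49%) had both and 4 (0.821%) the joined form. No background of equal length was taken for these parts. Over whole 300-base promoter windows, CCGGAAGT occurred in 13.3% of the 648 windows with a shared site, in 14.0% of 3015 windows with Fli1 only, in 6.15% of 130 with Ikzf1 only and in 3.89% of all 32817. GGAAGT gave 37.2%, 39.8%, 29.2% and 23.8% in the same order. TGGGAA, the Ikaros letters, gave 27.8%, 22.9%, 25.4% and 25.6%. The SP/KLF letters CCCGCCC stood in 48.8%, 49.1%, 43.1% and 25.6%. The GGAA core stood in 98.0%, 97.2%, 94.6% and 96.0%, so its presence hardly told the sets apart. The 3 sets with peaks were richer in G and C, with medians of 62.3%, 62.0% and 61.2% against 52.7% for all windows. Within the GC-richest of 4 classes of all windows, CCGGAAGT was present in 13.0% of 353 windows with a shared site and in 6.72% of all. TGGGAA was present in 21.8% and 17.6% there, in 34.9% and 28.7% in the next class, in 39.3% and 30.2% in the class below, and in 21.1% of 19 windows and 25.8% in the GC-poorest. These are matches on both strands in the promoter window only, and a missing match says nothing of binding.

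**Figure D1:**
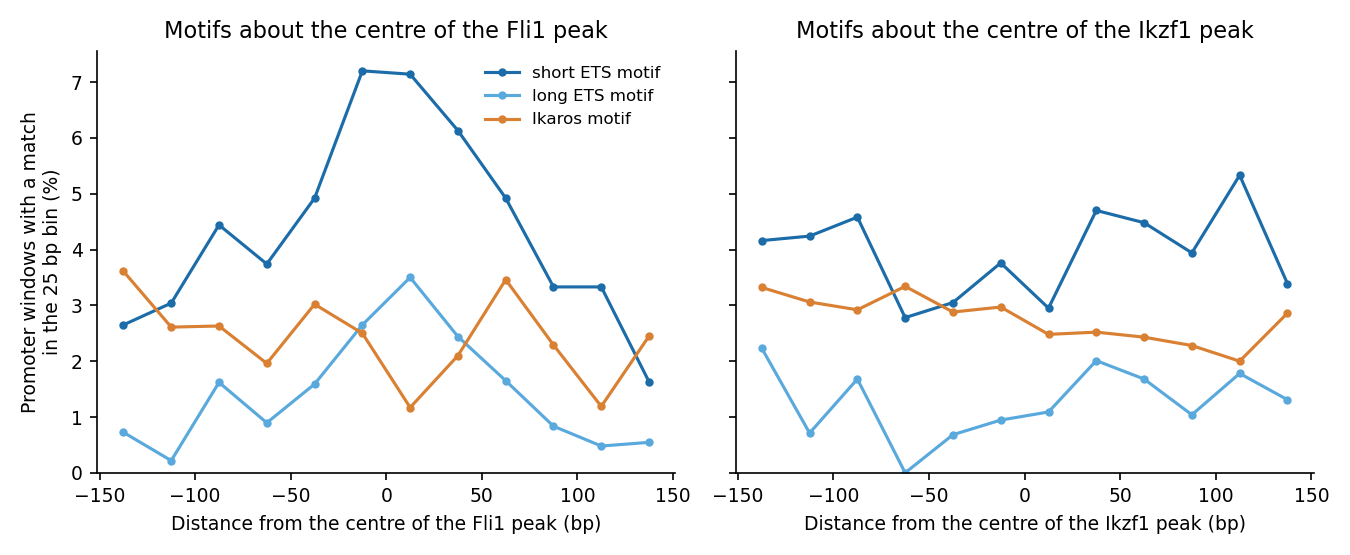
Share of RefSeq promoter windows with a shared site (y axis, percent) that hold a motif in each 25 bp bin, against distance in bp from the centre of the Fli1 peak (left) or of the Ikzf1 peak (right). The short ETS line (GGAAGT) reaches 7.20% beside the Fli1 centre, while the Ikaros line (TGGGAA) stays between 1.17% and 3.61% about the Fli1 centre and between 2.00% and 3.34% about the Ikzf1 centre.

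ETS letters gathered at the centre of the Fli1 peak, as the plot of motif positions shows. GGAAGT lay in 7.14% of windows in the 25 bp after the Fli1 centre and in 1.63% from 125 to 149 bp after it. CCGGAAGT went from 3.50% to 0.546% over the same distance. These outer bins rest on 6 and 2 matches. About the Ikzf1 centre the same letters showed no such peak: GGAAGT was at 2.95% in the first 25 bp and at 3.39% from 125 to 149 bp. TGGGAA was at 2.48% in the first 25 bp after the Ikzf1 centre and at 2.86% in that outer bin. The gathering of ETS letters was not particular to shared sites. In Fli1 peaks without Ikzf1, GGAAGT went from 6.45% to 3.13% and CCGGAAGT from 2.38% to 0.951% between the same 2 bins after the Fli1 centre.

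Fli1 peaks were mostly 353 bp wide and Ikzf1 peaks 185 bp. The shared stretch had a median of 177 bp, and in 1895 sites (46.0%) the Ikzf1 peak lay wholly inside the Fli1 peak. The 2 centres were a median of 92.0 bp apart, at most 25 bp apart in 598 sites (14.5%) and at most 100 bp in 2244 (54.4%). No shared Ikzf1 peak met more than 1 Fli1 peak. Sites just inside the rule were those at Ptges3, Bms1 and near Adck3 (in Cdc42bpa), which shared 1 bp with Ikzf1 scores of 9.41, 6.27 and 7.05. Just outside lay peaks near Pax7 and Rhoq, which touched a Fli1 peak with a gap of 0 bp and scored 9.01 and 7.05. Of the 1618 Ikzf1 peaks without Fli1, 920 (56.9%) lay within 1 kb of a Fli1 peak, and the median gap was 526 bp.

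Peak Scores are the authors' own values per peak and were used only within each list. Ikzf1 scores of shared sites ran from 4.31 to 318 with a median of 7.05, against 6.66 for Ikzf1 peaks without Fli1. Ikzf1 scores came in whole multiples of 0.392, the lowest in the list at 11 and the median shared site at 18 such steps, so most Ikzf1 peaks stood a few steps above the list's lower end. What a step stands for is not given in the sources used here. The Fli1 scores of Fli1 peaks that met an Ikzf1 peak had a median of 27.2, against 14.8 for Fli1 peaks that met none. At promoters these medians were 28.1 and 21.9, and away from them 26.7 and 13.3.

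The share of Ikzf1 peaks that were shared was 63.9% in the lowest and 81.0% in the highest of 4 equal classes by Ikzf1 score. Among Fli1 peaks the share was 1.03% in the lowest and 34.0% in the highest of 4 equal classes by Fli1 score. The Fli1 list is the longer one, so its share is limited by the number of Ikzf1 peaks. Across the 4123 sites the 2 scores had a Spearman correlation of 0.41 (0.30 over 1121 promoter sites and 0.44 over the other 3002). That value is a description: both libraries come from Wt cells and share 1 input library, and sites are not replicates.

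**Figure D2:**
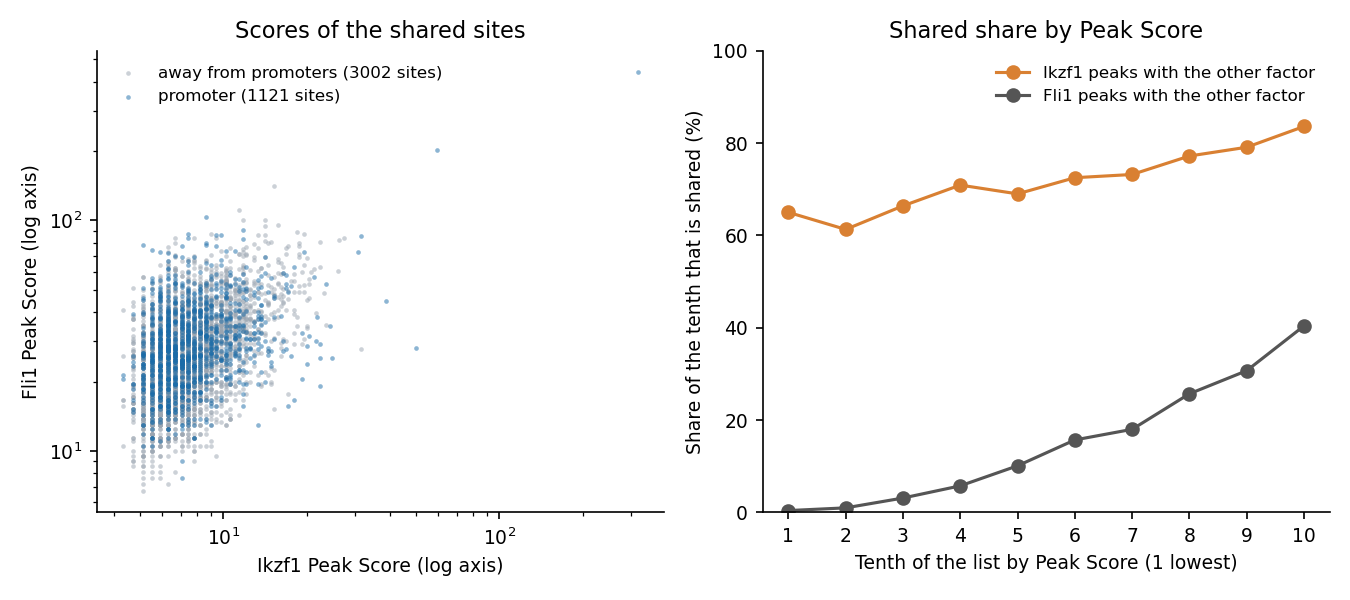
Left, Fli1 against Ikzf1 Peak Score of each shared site (both axes log, scores have no unit), promoter sites in blue and others in grey. Right, percent of each list's 10 equal classes by its own Peak Score that is shared, going from 0.403% to 40.4% over the Fli1 list and from 65.0% to 83.6% over the Ikzf1 list.

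By the authors' annotation, 1121 shared sites (27.2%, interval 25.9 to 28.6) lay at promoters, 1306 (31.7%) in introns and 1343 (32.6%) between genes. Promoters took 25.1% of Ikzf1 peaks without Fli1 (23 to 27.3), 21.3% of Fli1 peaks without Ikzf1 (20.8 to 21.8) and 11.6% of the 65093 accessible regions of the 230-238 line. Sites away from promoters are all those with another annotation. Some lie close to a start, such as a site 216 bp after that of Pop7. Within 1 kb of a start lay 37.0% of shared sites, 39.7% of Ikzf1 peaks without Fli1 and 29.6% of Fli1 peaks without Ikzf1. Wilson intervals here and below cover counting error over peaks of single libraries only. By distance to the nearest start, 526 sites (12.8%) lay within 100 bp, 999 (24.2%) from 100 bp to 1 kb, 715 (17.3%) from 1 to 10 kb and 1883 (45.7%) over 10 kb away, with 325 (7.88%) over 100 kb. Ikzf1 peaks without Fli1 came within 100 bp of a start in 5.75% and lay from 100 bp to 1 kb in 34.0%. Fli1 peaks without Ikzf1 were at 12.0% and 17.6%.

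In repeats lay 362 shared sites (8.78%), against 9.77% of Ikzf1 peaks without Fli1 and 14.3% of Fli1 peaks without Ikzf1. Of these, 172 were LTR elements, 83 SINEs and 78 LINEs. Chromosome X held 27 shared sites (0.655%, interval 0.450 to 0.951), against 2.12% of Fli1 peaks without Ikzf1 and 2.19% of accessible regions of the 230-238 line. Ikzf1 peaks without Fli1 also had a low X share, 0.803% (0.470 to 1.37).

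Promoter sites that ranked highest in both lists included those of 2 ribosomal protein genes. The top one by both scores, at Pisd-ps3, scored 318 for Ikzf1 and 442 for Fli1, but it lies on an unplaced contig near a pseudogene and was missing from the accessible list, so reads from other copies could not be told apart. A730008H23Rik scored 59.2 and 202, and its site (chr1:88277414-88277598) lay 51 bp after the start. Rps19 scored 31.4 and 85.8. Rpl32, a large-subunit ribosomal protein gene, had 30.6 and 72.9 at a peak that the annotation assigns to the promoter of the small nucleolar RNA Snora7a. Cltc, with 21.2 and 56.7, and Rac2, a small GTPase of blood cells with 23.5 and 52.9, followed. Srsf1 (a splicing factor), Upf2 (nonsense-mediated decay), Spred1 and A630019I02Rik had Ikzf1 scores from 16.5 to 19.6. A high score for one factor did not fix the other: Zfp260 had 49.8 for Ikzf1, the third highest, and 28.1 for Fli1, the 80.5th percentile of the Fli1 list.

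The next sites are those away from promoters with the highest scores in both lists. Lyl1, a basic helix-loop-helix factor of blood progenitors, had 27.4 for Ikzf1 and 84.3 for Fli1 at a site 1415 bp before its start (chr8:84699950-84700134), at the 3′ end of Trmt1. Near Bcl2l11, which encodes the pro-apoptotic protein Bim, the site (chr2:128008752-128008936) lay 117194 bp before the start, in intron 11 of Acoxl, with 26.3 and 81.9. Lef1, an HMG-box factor of Wnt signalling and early B cells, had 19.6 and 87.7 at a site 55629 bp before its start (chr3:131054576-131054760). Fzd9, a Wnt receptor gene, had 22.3 and 81.0 at 13590 bp before its start. The site in intron 2 of St3gal6, a sialyltransferase gene, had 18.8 and 80.0. Sites near Tnfrsf8 (CD30), Prkca (protein kinase C alpha), Atxn10, Gvin1 and Pop7 completed the list of 10, with Ikzf1 scores from 19.6 to 25.9.

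In all, 3356 genes were the nearest gene of at least 1 shared site, 18.4% of the 18283 genes named in the 3 peak lists. Of these, 1119 had a site at a promoter, 562 had 2 or more sites and 15 had 5 or more. Runx1, a master factor of definitive blood, had 8, at positions from -205643 to 52298 bp relative to its start, none at the annotated promoter. 5 sites each lay nearest to Bcl2l11, Cxcr4 (the chemokine receptor for Cxcl12) and Bcl11a (a zinc finger factor of lymphoid progenitors). Nearest start is not a proof of target: the Id2 site, for example, lies in the last intron of Kidins220.

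The gene lists below were drawn up with earlier results of these data known, and their counts are descriptions to set beside 18.4% of all named genes and 23.6% of the 6665 genes with an accessible promoter in the 230-238 line. Among 18 B-lineage transcription factors, 11 had a shared site. The Ikzf1 gene itself had one 10 bp after an annotated start (chr11:11690095-11690279), with an Ikzf1 score of 11.4 and a Fli1 score of 35.3. Bcl11a reached 11.8 and 30.5 in the site with its highest Ikzf1 score, and Pax5, the factor of B-cell commitment, 7.45 and 20.0 at 18584 bp before its start. Ebf1, Pou2af1, Pou2f2, Spib, Irf8, Ikzf3 and Sox4 were the nearest gene of none, although a site nearest to the start of Grb7 lies in intron 3 of Ikzf3.

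Pre-B-cell receptor signalling genes had a shared site in 12 of 21 cases. Syk, the kinase downstream of the receptor, had the highest Ikzf1 score, 16.5, with 30.5 for Fli1, 1653 bp after its start. Cd79b, a signalling chain of the receptor, had 11 and 34.3, and Ptpn6, an inhibitory phosphatase, 11 and 50.0. Cd79a, Vpreb1, Vpreb2, Blnk, Lyn, Btk, Dok3, Cd72 and Fcrla had none. Cytokine receptors and surface proteins had one in 8 of 14, among them Cxcr4 (20.0 and 34.8), Il2ra (9.80 and 44.3) and Flt3 (8.23 and 33.3). Recombination genes had a shared site in 1 of 10, at the promoter of Dclre1c (Artemis, 7.05 and 29.5), while Rag1, Rag2 and Dntt had none. A Fli1 peak without Ikzf1 lay nearest to 8 of the 10. Such peaks were common in other lists too, with 17 of 18 B-lineage factors, 16 of 21 pre-B-cell receptor genes and 64 of 79 ribosomal protein genes. Their share over all named genes was not counted.

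Progenitor factors had a shared site in 9 of 15, led by Lyl1, the co-repressor gene Cbfa2t3 (20.0 and 45.3) and Id2, an E-protein inhibitor (11.8 and 58.6). Cell cycle and survival genes had one in 7 of 13, with Bcl2l11 followed by Ccnd3 (cyclin D3, 13.3 and 26.7), Bcl2l1 (Bcl-xL, 11 and 50.0) and E2f2 (9.80 and 53.8). The ETS family had 5 of 15, including Ets1 (12.9 and 54.8) and the promoter of Gabpb1, partner of an ETS factor (11.8 and 82.9). Ikaros family and NuRD genes had 3 of 14 named: Ikzf1, Gatad2a (8.62 and 19.1) and Hdac1 (7.45 and 21.4). Housekeeping lists lay near or below the shares of all genes: 12 of 79 ribosomal protein genes (15.2%), 14 of 70 of the mitochondrial ribosome (20.0%), 7 of 36 of the proteasome (19.4%) and 12 of 91 of the respiratory complexes (13.2%). Markers of other cells gave 2 of 11 for T cells (Cd3d and Notch1), 1 of 4 for natural killer cells (Klrb1c) and 2 of 9 for myeloid cells (Fcgr3 and Itgam).

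Most shared sites were accessible in the transformed line. They overlapped the 230-238 accessible list in 3690 cases (89.5%, interval 88.5 to 90.4), against 79.7% of Ikzf1 peaks without Fli1 (77.6 to 81.6) and 72.5% of Fli1 peaks without Ikzf1 (71.9 to 73.1). At promoters the shares were 96.5%, 90.9% and 89.5%, and away from promoters 86.9%, 75.9% and 67.9%. The gap between shared and unshared Ikzf1 peaks was present in each of 4 classes by Ikzf1 score, with 84.0% against 73.2% in the lowest and 92.6% against 85.7% in the highest. Within 4 classes by Fli1 score the gap between shared and unshared Fli1 peaks narrowed, from 77.1% against 54.1% in the lowest to 93.4% against 91.9% in the highest. Seen from the accessible list, 5.71% of its regions held a shared site, while 32.0% held a Fli1 peak and 7.57% an Ikzf1 peak.

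**Figure D3:**
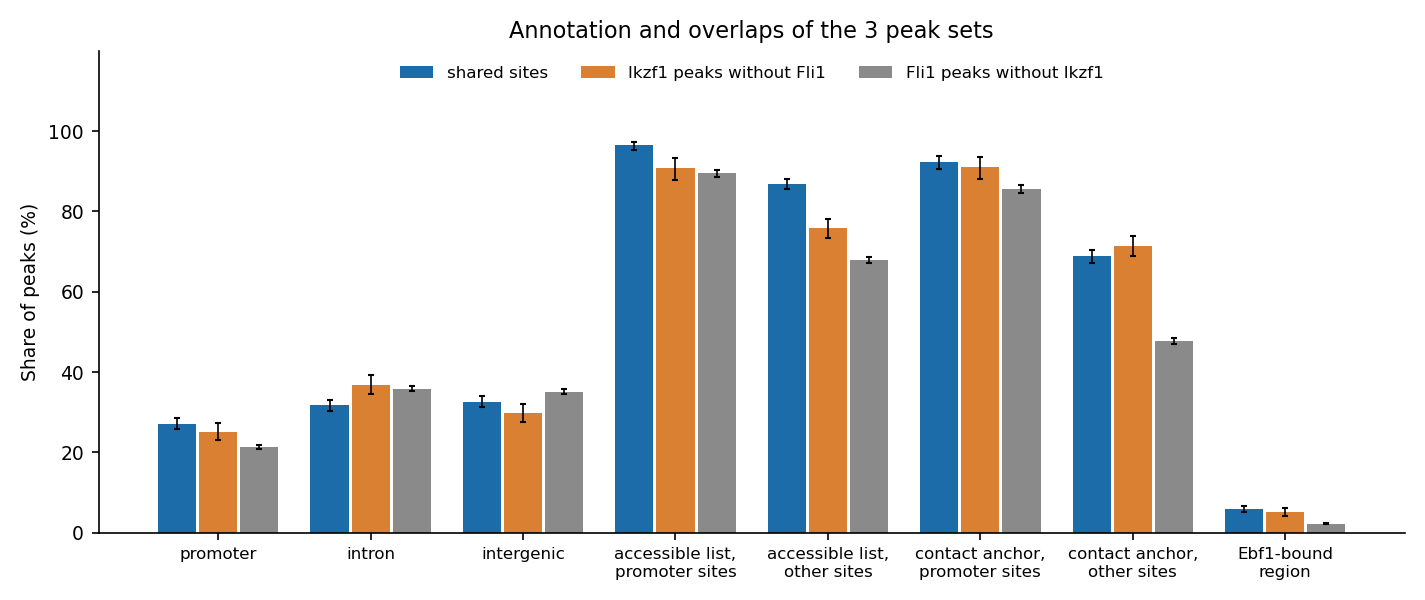
Percent of the peaks of each set (y axis) with an annotation class or an overlap named on the x axis, for shared sites (blue), Ikzf1 peaks without Fli1 (orange) and Fli1 peaks without Ikzf1 (grey), with 95% Wilson intervals as bars. Shared sites away from promoters are in the accessible list in 86.9%, above 75.9% and 67.9%, while both Ikzf1 sets stand close together in contact anchors.

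PLAC-seq here enriches chromatin contacts anchored at H3K4me3, a mark of promoters, so anchors favour promoters. The list paired 5 kb bins of the 230-238 line, and 3101 shared sites (75.2%, interval 73.9 to 76.5) lay in an anchor bin. The share was 76.5% (74.3 to 78.5) for Ikzf1 peaks without Fli1, 55.8% (55.1 to 56.4) for Fli1 peaks without Ikzf1 and 56.9% for accessible regions. The intervals of the 2 Ikzf1 sets overlapped. At promoters the shares were 92.3%, 91.1%, 85.7% and 89.5% in the same order, and away from promoters 68.8%, 71.5%, 47.7% and 52.7%. By Fli1 score class from low to high, shared Fli1 peaks were in anchors in 45.7%, 59.9%, 73.0% and 81.3%, and unshared ones in 33.0%, 50.5%, 69.3% and 80.5%.

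Of the 69898 contacts, 14982 (21.4%) had a shared site at an end or both, and 840 (1.20%) at both. The shares were 10.1% and 0.222% for Ikzf1 peaks without Fli1. For Fli1 peaks without Ikzf1, the longest list, they were 65.2% and 13.3%. Contacts between 2 shared sites had a median count of 20.5 against 16.0 for all contacts, 22 between Ikzf1 peaks without Fli1 and 19.0 between Fli1 peaks without Ikzf1, and a median distance of 105 kb against 130 kb. In 374 of the 840 a promoter site faced one away from promoters, in 309 neither end held a promoter site and in 157 both did. A contact count depends on distance, so these medians were not compared further. Among shared sites away from promoters, 1187 of 3002 (39.5%, interval 37.8 to 41.3) shared a contact with a bin that holds an accessible promoter, against 42.8% (40.1 to 45.6) and 26.4% (25.8 to 27) in the comparison sets. These counts include peaks close to a start, and the sets were not matched for this.

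An anchored shared site had a median of 4.00 contacts, and 464 sites had 10 or more. Contacts per site were not counted for the comparison sets. The site with the most, 33, lay in intron 1 of Maml3, a Notch co-activator gene, 2469 bp after its start. Promoter sites nearest to Extl2 (28, at the promoter of the neighbouring Slc30a7), Hsdl2 and Lrrn3 (25 each) followed, then the intron 1 site of St8sia4 (24), a polysialyltransferase gene. Bhlhe40, a basic helix-loop-helix repressor, Anks1 and 1700120C14Rik had 23 each. The site at BC028528 had its strongest contact, a count of 157 with a q-value of 1.1e-13, with a bin 20.0 kb away that holds a shared site at C920021L13Rik. The Bcl2l11, Lef1 and Atxn10 sites named above had 0 contacts in the list.

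Ebf1-bound regions are 1172 regions near genes that the authors chose as enriched in Wt, bound by Ebf1 in the 230-238 line, and say nothing of Ebf1 binding elsewhere. Of these, 246 (21%) held a shared site, 482 (41.1%) Fli1 without Ikzf1, 78 (6.66%) Ikzf1 without Fli1 and 366 (31.2%) no peak of either. Counted by sites, 245 shared sites (5.94%, interval 5.26 to 6.71) lay in one, against 5.07% (4.10 to 6.25) of Ikzf1 peaks without Fli1 and 2.28% (2.10 to 2.49) of Fli1 peaks without Ikzf1. The deposited tables mark 179 of the 246 (72.8%) as also a Pax5 peak of the 230-238 line, against 58.5% with Fli1 alone, 55.1% with Ikzf1 alone and 36.1% with neither. The region was closed in Ebf1-KO, by the authors' classes, in 34 of the 246 (13.8%), against 20.1%, 17.9% and 30.3%. Away from promoters, 125 of 196 Ebf1-bound shared sites (63.8%, interval 56.8 to 70.2) shared a contact with an accessible promoter. The same share was not taken over Ebf1-bound regions without a shared site, so this value has no matched background.

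Signal was then read in regions that overlap a shared site. The region tables give tags per 10000000 sequenced tags, without division by region length, from 1 pooled or single library per group with totals from 24557525 to 196071042 tags. A ratio is taken as log2 of (value + 1) over (value + 1), which understates changes of low regions, and intervals of medians are 95% order-statistic intervals over regions. No replicate columns were given, so no test was possible and the differences are between these libraries. All regions lie near genes chosen as enriched in Wt, so median ratios and shares are set beside those over all regions of the table or beside other sets of its regions. Regions with a shared site were also longer, with a median of 1002 bp against 586 bp in the accessibility table, and had more signal. Median Wt accessibility was 47.9 with a shared site, 37.8 with Ikzf1 alone, 28.7 with Fli1 alone and 6.76 with neither. Shared sites were defined by peaks of Wt libraries, the Wt side of each ratio of a mutant to Wt. Such a choice favours regions strong in Wt, and its part in the lower mutant values was not tested.

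Accessibility was lower in E2A-KO than in Wt, with the lowest median ratio at regions with a shared site among the sets compared. In the 402 of 4829 regions with a shared site, the median was 47.9 in Wt and 13.5 in E2A-KO (12.0 and 5.83 over all regions), a median log2 ratio of -1.50 (-1.70 to -1.34), against -0.76 (-0.79 to -0.74) over all regions. Regions with Fli1 alone were at -1.06 (-1.12 to -1.0), with Ikzf1 alone at -1.07 (-1.38 to -0.95) and with neither at -0.56 (-0.58 to -0.53). The interval with Ikzf1 alone overlaps that of shared sites. At least 2-fold lower were 293 of the 402 (72.9%), against 37.6% of all regions, and 0 were at least 2-fold higher. Limited to regions of 500 to 1000 bp, the medians were -1.77 with a shared site, -1.13 with Fli1 alone and -0.57 with neither. Limited to the highest of 4 classes by level they were -1.40, -1.08 and -0.90. Regions with Ikzf1 alone were not examined under either limit. The header of the Wt column counts 6 libraries while the labels hold 3 Wt samples, and the part of this in the ratios was not tested.

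Single regions spanned a wide range. At the Il5ra promoter (interleukin-5 receptor) accessibility was 144 in Wt and 2.56 in E2A-KO, 56.0-fold lower by tags (interval 36.9 to 89.5). In intron 1 of Alpl, alkaline phosphatase, it was 172 and 5.36. At the non-coding gene 1700027J07Rik it was 118 and 4.66, and 13018 bp before Bcar3, 79.1 and 3.73. Only 2 regions whose larger value was at least 20 had a higher value in E2A-KO, in Rad52 with 47.7 against 38.1 and in Prx with 82.8 against 74.6.

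RNA polymerase II (PolII) and H3K27ac, an acetylation of active elements measured by CUT&RUN, were lower in Ebf1-KO than in Wt. Over 401 of 3642 regions with a shared site, median PolII was 35.1 in Wt and 13.0 in Ebf1-KO (13.3 and 6.50 over all regions), a median log2 ratio of -1.15 (-1.30 to -0.95) against -0.67 over all regions. In 218 (54.4%) PolII was at least 2-fold lower, against 39.7% of all regions. With Fli1 alone the median log2 ratio was -0.80 (-0.88 to -0.68), and 43.0% were at least 2-fold lower. Regions with Ikzf1 alone were at -0.99 (-1.33 to -0.53) with 49.4% at least 2-fold lower, an interval that overlaps that of shared sites. H3K27ac was at 35.8 and 14.6 (15.5 and 7.59 over all regions), with -0.92 (-1.08 to -0.78) against -0.70, and 191 regions (47.6%) were at least 2-fold lower against 37.4% of all. Its median was -0.72 (-1.10 to -0.55) with Ikzf1 alone, which overlaps the interval of shared sites, and -0.72 (-0.79 to -0.68) with Fli1 alone. In the highest of 4 classes by H3K27ac level, shared sites were at -0.79 (-0.97 to -0.66) and Fli1 alone at -0.59 (-0.71 to -0.47), with overlapping intervals. In the highest of 4 classes by PolII level, the medians were -1.13 (-1.28 to -0.85) with a shared site, -0.50 (-0.66 to -0.38) with Fli1 alone and -0.27 (-0.41 to 0.03) with neither. In the second-lowest class shared sites were at -0.97 over 30 regions and Fli1 alone at -1.08.

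H3K4 methylation differed less. H3K4me2, a mark of promoters and enhancers, had a median log2 ratio of -0.40 (-0.64 to -0.24) against -0.18 over all regions, and 151 regions (37.7%) were at least 2-fold lower against 30.3%. H3K4me3 was at -0.10 (-0.29 to 0.11) against 0.02, with 118 regions (29.4%) at least 2-fold lower against 25.2% of all and 43 (10.7%) at least 2-fold higher against 15.4%. Both medians were positive in the highest of 4 classes by level, though the H3K4me2 interval at shared sites spanned both signs. H3K4me2 was there at 0.14 (-0.02 to 0.30) with a shared site, 0.48 with Fli1 alone and 0.51 with neither, and H3K4me3 at 0.55 (0.41 to 0.70), 0.59 and 0.49. H3K27me3, a repressive mark of Polycomb, was low, with medians of 0.930 in Wt and 0.780 in Ebf1-KO (0.860 and 0.710 over all regions). In the highest of 4 classes by level the median log2 ratio was 1.60 (1.30 to 1.93) with a shared site, 1.19 with Fli1 alone and 0.95 with neither, while over all levels it was -0.02. That class was picked on the same 2 values that form the ratio. Wt values were low, and the part of the choice of class in the positive sign was not tested. H3K27me3 was at least 2-fold higher in Ebf1-KO in 79 regions (19.7%), against 16.9% of all. The tail was large: at the site 3411 bp before Lef1 the value was 2.01 in Wt and 90.1 in Ebf1-KO, and in the first exon of Kirrel it was 0.720 and 67.5.

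In the Ebf1-bound regions, the acetyltransferase EP300 and BRG1, the ATPase of the BAF remodeller, were measured. The Wt EP300 sample carries a label that reads as a PolII antibody with a question mark, so its target is uncertain. EP300 had medians of 22.3 in Wt and 12.7 in Ebf1-KO over the 246 regions with a shared site, a log2 ratio of -0.76 (-0.98 to -0.52) against -0.56, and 106 (43.1%) were at least 2-fold lower against 36.9% of all. BRG1 was at 22.5 and 15.4, with -0.33 (-0.55 to -0.12) against -0.29, and 90 (36.6%) were at least 2-fold lower against 32.4%. The BRG1 shares lie near the background. In the highest of 4 classes by level the BRG1 medians were positive, but each interval spanned both signs. They were 0.23 (-0.00 to 0.43) with a shared site, 0.09 (-0.00 to 0.22) with Fli1 alone and 0.40 (-0.09 to 0.75) with neither. For EP300, regions with Fli1 alone were at -0.63 (-0.77 to -0.49), an interval that overlaps that of shared sites. By level class from low to high, EP300 was at -0.78, -1.19, -0.48 and -0.87 with a shared site and at -0.73, -0.65, -0.73 and -0.37 with Fli1 alone, so the order of the sets was not the same in every class. In intron 1 of Alpl, EP300 was 117 in Wt and 0.940 in Ebf1-KO, and near Col6a6 BRG1 was 29.7 and 0.420.

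**Figure D4:**
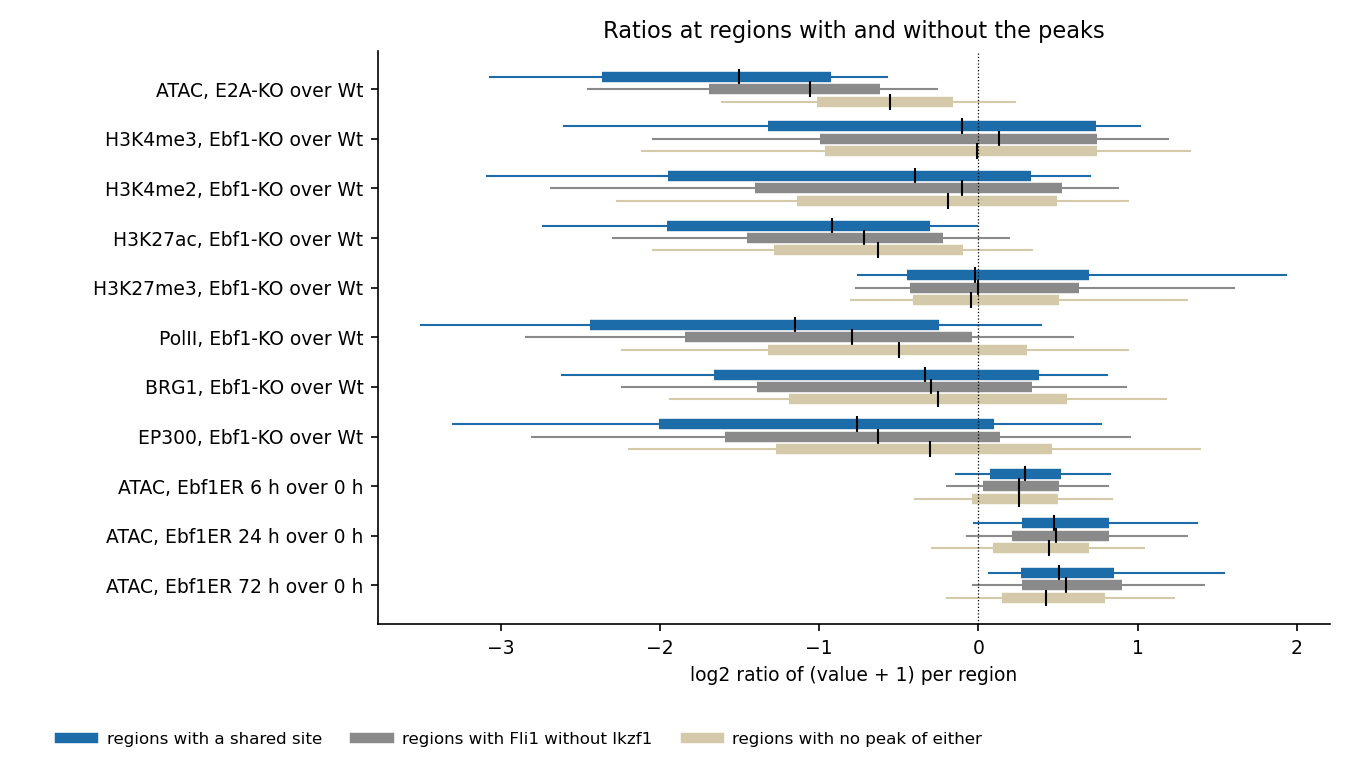
Log2 ratio of (value + 1) per region (x axis) for 11 comparisons, in regions with a shared site (blue), with Fli1 but no Ikzf1 peak (grey) and with neither (beige). Ticks are medians, thick bars hold the middle 50% of regions and thin lines run from the 10th to the 90th percentile, which shows the E2A-KO median of -1.50 at shared sites beside -1.06 and -0.56.

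When Ebf1ER was switched on in Ebf1-KO cells, accessibility at Ebf1-bound regions with a shared site was higher at each later time, as it was in the other Ebf1-bound regions. Medians over the 246 regions were 13.6 at 0 h, 17.9 at 6 h, 22.8 at 24 h and 23.8 at 72 h. The median log2 ratios to 0 h were 0.29 (0.23 to 0.32), 0.48 (0.44 to 0.54) and 0.51 (0.47 to 0.58), against 0.26, 0.47 and 0.50 over all 1172 regions. At least 2-fold higher were 16 regions (6.50%) at 6 h against 5.97% of all, 47 (19.1%) at 24 h against 16.1% and 48 (19.5%) at 72 h against 18.2%. These shares lie near the background. The 6 h and 72 h columns state nearly equal library totals, 34710011 and 34710016, though their values differ, and all 3 comparisons share the 0 h column. In the region near 2410012E07Rik accessibility was 7.40, 31.4, 60.1 and 53.9 at the 4 times. At an Apbb1 promoter it was 8.25, 27.9, 55.2 and 60.8, and nearest to Derl1, in intron 2 of Zhx2, 3.17 at 0 h, 27 at 24 h and 38.0 at 72 h.

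Among the 50 regions with a shared site that the authors class as open in Wt but not in Ebf1-KO (12.4% of the 402, against 17.0% of all regions), 34 (68.0%) were Ebf1-bound and 48 (96.0%) were at least 2-fold lower in E2A-KO. Over all 821 regions of that class the shares were 31.9% and 71.6%. With Fli1 alone they were 44.8% and 85.2% of 223 regions, and with Ikzf1 alone 42.9% and 92.9% of 28. Nedd9, a docking protein of integrin signalling, had 2 of them. The region 59197 bp before its start had accessibility of 83.3 in Wt and 4.90 in E2A-KO and PolII at 97.5 in Wt and 2.74 in Ebf1-KO. For Cd79b, accessibility was 45.3 in Wt and 3.50 in E2A-KO, and H3K27ac 59.7 in Wt and 3.7 in Ebf1-KO. In the Ikzf3 intron nearest to Grb7, PolII was 85.8 and 7.52 and H3K27me3 1.65 and 20.4. Enpep, which encodes the early B-cell antigen BP-1, had PolII of 57.4 and 1.71, Cplx2 28.5 and 2.05, and Tprg 50.3 and 0.340.

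The 8 Ebf1-bound shared sites with the highest Ikzf1 scores showed how unlike such regions can be. At the Lef1 region all marks and factors but H3K27me3 (0.570 in Wt and 2.72 in Ebf1-KO) were lower in the mutants: accessibility 92.3 in Wt and 6.88 in E2A-KO, PolII 132 and 2.74, EP300 65.0 and 2.04, and BRG1 28.2 and 3.36 in Ebf1-KO. Its accessibility was 5.07, 5.47, 10.7 and 15.8 over the 4 times of 4OHT. Ppt1, a lysosomal thioesterase gene, had accessibility of 134 and 8.16 and PolII of 162 and 30.4, but BRG1 of 27.4 in Wt and 34.2 in Ebf1-KO, and its accessibility was 24.1, 44.4, 46.2 and 61.1 with 4OHT. St6gal1, which adds sialic acid to B-cell glycoproteins, had EP300 of 46.7 in Wt and 69.4 in Ebf1-KO and BRG1 of 18.9 in both. St3gal6 kept H3K27ac at 84.7 and 70.1 with PolII at 72.2 and 21.9. Fzd9 had PolII of 27.7 and 27.4, whereas EP300 was 45.8 and 16.8. Nedd9, unlike the other regions, was classed by the authors as closed in Ebf1-KO. Its values with 4OHT were low at each time, 4.86, 6.34, 2.73 and 6.63. The value at 24 h was below that at 0 h, but no interval was taken for these low values. Tac4 and BC028528 had the lowest Wt accessibility of the 8, 35.4 and 33.3.

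**Figure D5:**
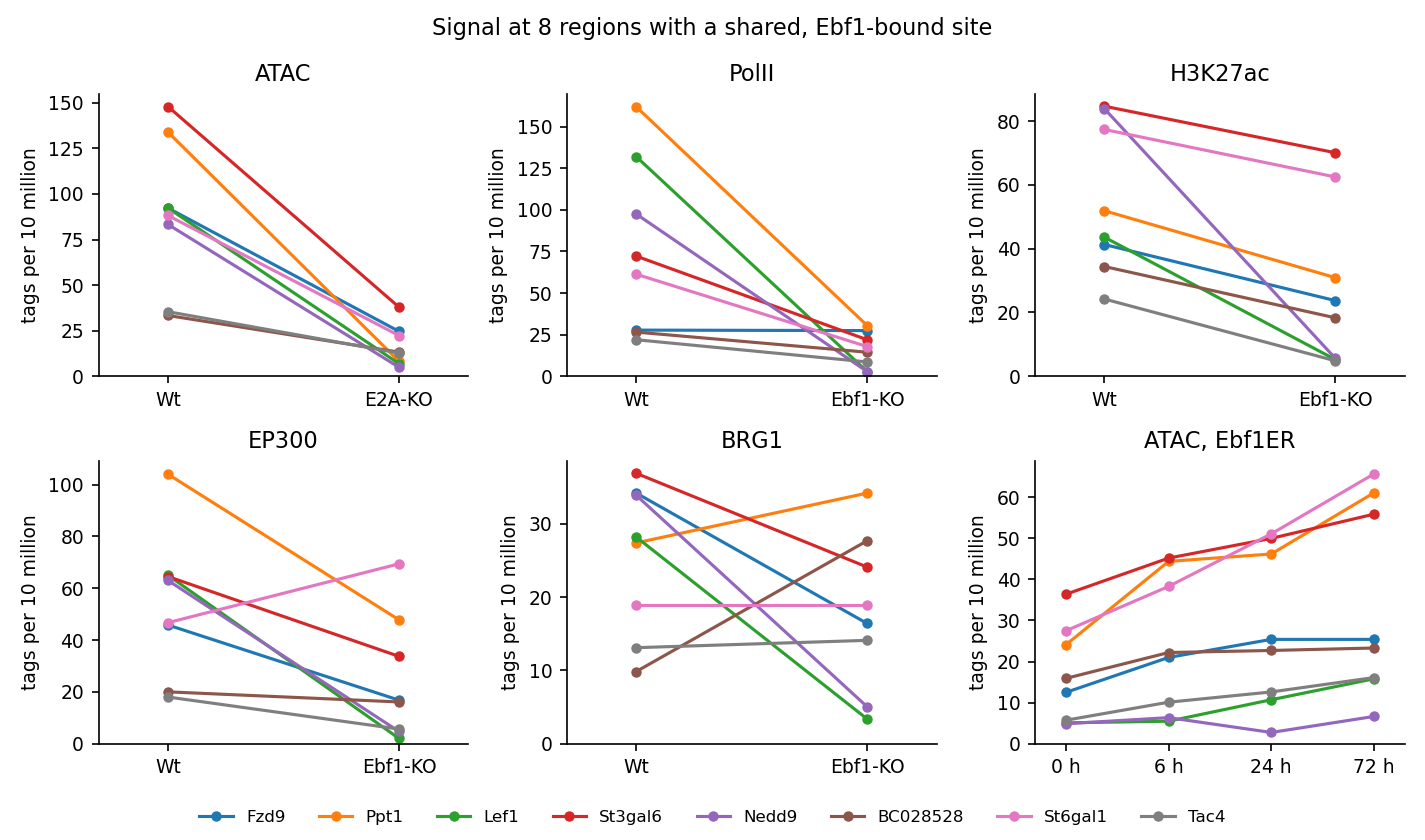
Tags per 10000000 (y axes) in Wt and E2A-KO or Ebf1-KO libraries, and over hours of 4OHT (last panel), for the 8 Ebf1-bound regions whose shared site has the highest Ikzf1 score, each a colour and each point 1 library or pool. All 8 lines fall for accessibility in E2A-KO, from between 33.3 and 148 in Wt to between 4.90 and 37.9, while BRG1 lines cross.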

How the data were processed

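The Fli1 and Ikzf1 peak lists were deposited with a Peak Score per peak and the nearest gene; peaks were called against input, per the labels. The region tables hold a signal the authors scaled to 10000000 tags per library, per the file headers. The deposited PLAC-seq list holds contact counts per pair of 5 kb bins and a q-value of at most 0.0500. The submitters' processing notes list HOMER 4.10, MACS2, HiC-Pro 2.11.1, Bowtie2 2.3.5, Picard, deepTools 3.3.1, edgeR, FastQC, SAMtools 1.9 and Trim Galore 0.6.4, with mm10 (GRCm38.p5).

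Overlap means at least 1 bp of closed intervals. A blank gene name was filled through the accession of the nearest start, from other rows of the deposited tables (119 sites) or RefSeq (25). In the marks and accessibility tables, 122 and 154 rows repeated another row's position, with values up to 1.63 and 0.350 apart, and were dropped. Value times library total returned whole tags or multiples of 0.5, used for exact Poisson and conditional intervals. Ratios used a pseudocount of 1. Named sites are the 10 promoter and 10 other sites with the highest lower percentile of both scores, up to 4 genes per gene list, the 8 top Ebf1-bound sites, the 8 with most contacts, up to 4 regions per comparison and direction with a value of at least 20, and sites just inside and outside the rule; the text gives a part of them. Members and lists were chosen with earlier results of these data known. Motif search of the GGAA core was added after seeing the data. The accessibility table's columns for Ebf1-KO and Pax5-KO, 2 in number and with no labelled sample, were not used, and no genome sequence outside promoter windows was used. The scripts (matplotlib 3.10.9, pandas 2.3.3, numpy 2.4.6, SciPy 1.17.1, all in Python 3.11.15) were tested on simulated data.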

Additional observations from a re-analysis of the deposited data

How the results depend on the processing

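No paired analysis was possible because no column of the files holds a single replicate of a replicated group, and leaving out a replicate was not possible for the same reason. Over 16 results and 78 alternative values, 46 stayed within the main value's interval or within 1.5 times a count. Sites numbered 2244 with centres at most 100 bp apart and 2191 in the upper 50% of each list by score. Of the latter 28.9% lay at promoters, 92.6% in the accessible list and 7.03% in Ebf1-bound regions. Promoters took 37.0% when defined as within 1 kb of a start. The accessible share was 87.8% with 50% of the peak covered, and the anchor share 66.9% at q up to 0.01.

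With pseudocount 5 the median log2 ratio was -1.26 for E2A-KO accessibility, -0.77 for H3K27ac, and 0.23, 0.41 and 0.43 for Ebf1ER at 6, 24 and 72 h. Relative to all regions it was -0.74 for E2A-KO, -0.22 for H3K4me2, -0.22 for H3K27ac, -0.48 for PolII, -0.05 for BRG1, -0.20 for EP300, 0.03, 0.01 and 0.01 for Ebf1ER, and reversed to 0.01 for H3K27me3. With a larger value of at least 20, H3K4me3 reversed to 0.17 and H3K27me3 to 3.14 (15 regions). That limit, like the classes by level, picks regions on the values of the ratio itself. The next 2 choices were made after seeing the data. In the highest of 4 classes by level, H3K4me3 reversed to 0.55, H3K4me2 to 0.14, H3K27me3 to 1.60 and BRG1 to 0.23. The intervals of H3K4me2 and BRG1 there spanned both signs. In regions of 500 to 1000 bp the median was -1.77 for E2A-KO, -1.37 for PolII and 0.64 for Ebf1ER at 72 h. The cause of these changes was not tested. Each group is 1 library or pool, so intervals cover counting error or spread over regions, not biological replicates.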
